A study of Mus musculus with 24 samples.

Results

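Luminal progenitors (LP) of the mouse mammary gland supplied 8 of the 24 RNA sequencing libraries of this study, and by replicate number the 8 fall into 2 sets of 4. Replicates 1 and 2 of wild-type (WT) and of ID4 knockout (KO) mice form the first set, and replicates 3 and 4 of both genotypes form the other. The division was chosen from measured values of these same libraries, with Fosl1 and Srxn1 as the genes that mark replicates 3 and 4, so LP differences between the sets are given as a description, with no test. The donors were FVB/N females in estrus, aged 10 to 12 weeks, and a replicate pooled the glands of 4 to 8 of them. KO mice lacked ID4, a helix-loop-helix protein that blocks the transcription factors it binds, and which part of the gene the allele lacks is left unsaid in the labels. Live cells without lineage markers were sorted into LP (CD24+CD29loCD61+), mature luminal cells (ML, CD24+CD29loCD61-) and basal cells (CD24+CD29hiCD61+), with 4 replicates of each genotype in each. Between 0.5 and 2 ng of RNA per sample was amplified before sequencing. The labels do not say what a replicate number stands for, such as a day, a sort or an amplification round, and libraries of different populations with the same number may come from the same pool of glands.

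Luminal progenitors are the KIT-positive, hormone receptor-poor cells of the inner duct layer that give rise to milk-secreting alveolar cells. FOSL1 is a FOS-family subunit of AP-1, a dimeric transcription factor that binds the motif TGANTCA, and its gene is switched on by sustained growth factor signalling through ERK. SRXN1, sulfiredoxin, repairs oxidised peroxiredoxins, and its gene is a known target of AP-1 and of NRF2, the factor that induces antioxidant enzymes through the antioxidant response element (ARE).

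Levels below are CPM, which are deposited counts brought to one library size with the scaling of each population's own fit. Differences are fitted log2 values of replicates 3 and 4 minus replicates 1 and 2, with genotype as a term and the standard error (SE) in parentheses. A gene is termed called when edgeR's quasi-likelihood test gave an adjusted p under 0.05 over all genes tested, and in LP that is a descriptive threshold only. LP libraries held 5197546 to 7246445 counts in replicates 1 and 2 and 3786225 to 6019846 in replicates 3 and 4, so 3 counts corresponded to between 0.414 and 0.792 CPM. Mitochondrial ribosomal RNA took 17.6% to 35.1% of counts in replicates 1 and 2 and 13.6% to 26.9% in replicates 3 and 4, and 15097 to 17062 against 14422 to 16602 genes were detected. The part of these depth differences in the results was not tested. KO replicate 3 stood apart from the other LP libraries: it lay at 114 on a first principal component (36.7% of the variance) on which the other 7 spanned -44.7 to 14.5. On the same component replicates 1 and 2 lay between -44.7 and -23.9 and replicates 3 and 4 between 8.01 and 114. Counts by list, promoter motif, gene type and GC content, and the comparisons with ML and basal cells, are therefore also given without KO replicate 3. Id4 had 0 to 5 counts in WT and 0 to 4 in KO LP, so it cannot check the genotype labels there, while basal libraries held 67 to 595 counts in WT and 4 to 64 in KO. LP identity was plain from Kit, the stem cell factor receptor, with a median of 315 CPM in LP against 54.6 in ML and 15.2 in basal cells on a scaling of all 24 libraries. Krt14, a basal keratin, had a median of 4.26 CPM in LP and 619 in basal cells.

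Of 12322 genes tested in LP, 437 were called (3.55%), of which 355 were higher (2.88%) and 82 lower (0.665%) in replicates 3 and 4. Over all 12322 genes the median difference was -0.05, with 46.7% above 0 and 53.3% below. The median size of the called genes was 1.2 log2 units among the higher genes and -1.25 among the lower ones. All 4 libraries of one set lay above all 4 of the other for 1725 genes (14%). Without KO replicate 3 the number called was 217 (182 higher and 35 lower, 1.68%), 199 of them among the 437. Leaving out any other single LP library gave 174 (WT replicate 2) to 408 (KO replicate 4) called genes. All 437 kept their direction without KO replicate 3, and the median size over them went from 1.2 to 1.09. At the edge of the threshold, the last genes inside were Senp5, with means of 11.9 and 28.0 CPM, and Bcl9l, with 103 and 57.5. The first genes outside were Cmpk2, with 12.3 and 3.64 CPM, and Col9a1, with 63.6 and 34.5.

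Fosl1 (chr19:5447547-5455946, plus strand, mm10) stood at 28.5 and 44.0 CPM in WT and at 69.4 and 44.1 CPM in KO replicates 1 and 2. In replicates 3 and 4 it stood at 158 and 169.7 CPM in WT and at 266 and 229.6 CPM in KO. The lowest library of replicates 3 and 4 thus lay well above the highest of replicates 1 and 2, and the means were 46.5 ± 17.0 and 206 ± 51.0 CPM (SD, n = 4 each), a log2 difference of 2.15 (SE 0.21). Srxn1 (chr2:152105516-152111376, plus strand) stood at 55.2 and 68.5 CPM in WT and 77.2 and 45.2 CPM in KO replicates 1 and 2. It reached 237 and 201 CPM in WT and 338 and 247 CPM in KO replicates 3 and 4. The sets did not overlap for Srxn1 either, with means of 61.5 ± 14.2 and 256 ± 58.0 CPM (SD, n = 4 each) and a log2 difference of 2.04 (SE 0.22). Across 17 alternative settings the difference ran from 2.03 to 2.30 for Fosl1 and from 1.85 to 2.25 for Srxn1.

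**Figure D1:**
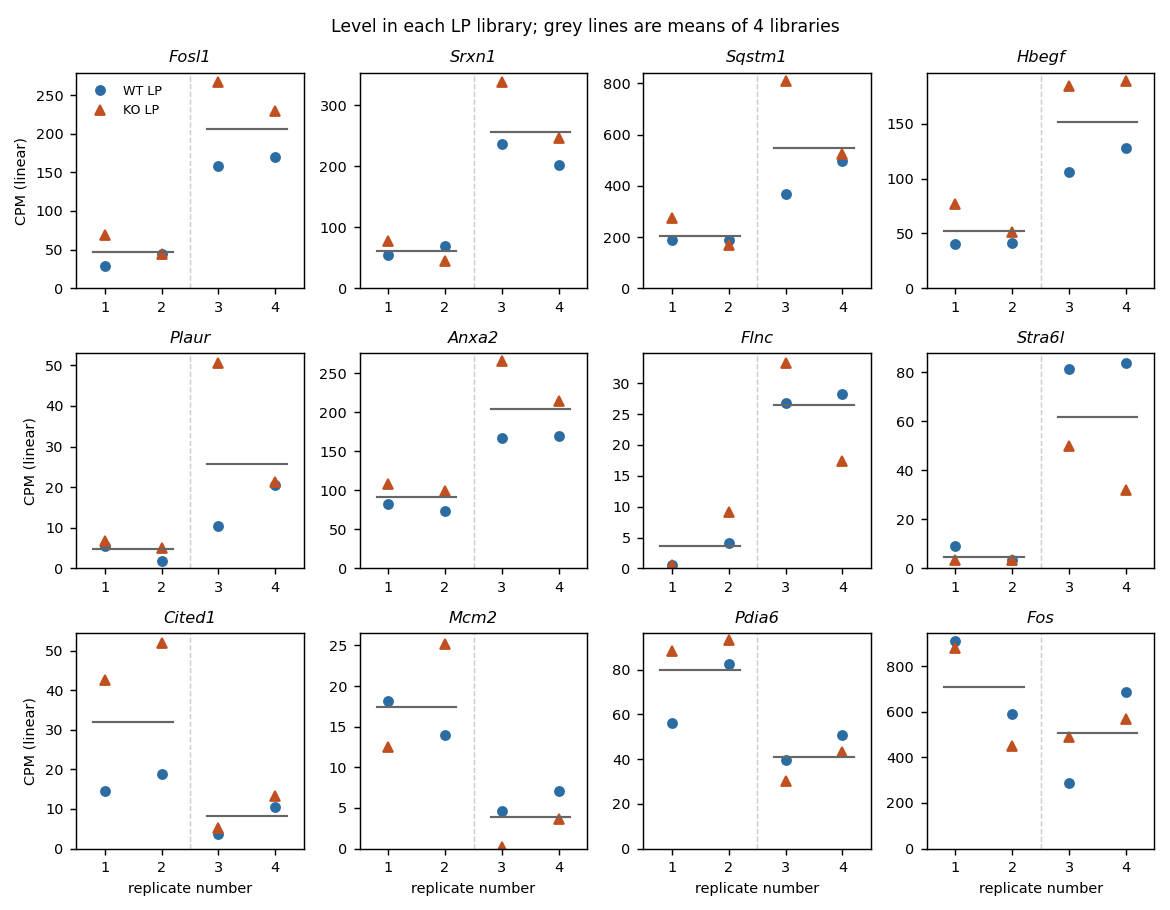
Level of 12 genes (CPM, linear axes from 0) in each LP library by replicate number, with WT as circles, KO as triangles and grey lines for the mean of each set of 4. Fosl1, Srxn1, Sqstm1, Hbegf, Plaur, Anxa2, Flnc and Stra6l are higher in replicates 3 and 4 without overlap, Cited1, Mcm2 and Pdia6 are lower without overlap, and Fos overlaps between the sets.

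Promoters are shown for Srxn1 and for Anxa2 and F3, described below, because these are genes higher in LP replicates 3 and 4, called in ML too, with an AP-1 motif in the 250 bases before the start site. The sequences are from RefSeq on GRCm38.p6, run 5′ to 3′ on the gene's own strand and stop before the gene as annotated. Capitals mark matches to TGANTCA.
Srxn1, chr2:152105274-152105515, plus strand: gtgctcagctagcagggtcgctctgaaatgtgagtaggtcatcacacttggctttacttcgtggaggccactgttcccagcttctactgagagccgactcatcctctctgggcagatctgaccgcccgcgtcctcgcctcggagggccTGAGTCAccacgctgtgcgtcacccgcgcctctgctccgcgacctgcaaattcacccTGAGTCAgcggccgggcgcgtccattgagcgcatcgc
Anxa2, chr9:69453433-69453619, plus strand: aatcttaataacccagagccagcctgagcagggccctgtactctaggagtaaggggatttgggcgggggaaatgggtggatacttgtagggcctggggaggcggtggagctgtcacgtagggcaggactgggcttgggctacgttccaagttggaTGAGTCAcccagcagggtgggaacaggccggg
F3, chr3:121723287-121723536, plus strand: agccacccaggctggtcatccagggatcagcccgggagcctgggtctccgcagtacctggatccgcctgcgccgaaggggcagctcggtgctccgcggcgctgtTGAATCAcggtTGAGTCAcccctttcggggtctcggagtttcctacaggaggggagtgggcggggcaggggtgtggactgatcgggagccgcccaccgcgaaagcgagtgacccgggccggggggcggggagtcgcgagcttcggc
The matches begin 102 and 45 bases before the RefSeq start site in Srxn1, 95 in Anxa2, and 146 and 135 in F3. In Srxn1 and Anxa2 that site lies inside the gene as annotated. The printed sequences there stop short of it, with 242 and 187 of the 250 bases. In Emp1, whose window lies inside the gene as annotated and is not printed, matches begin 145 and 25 bases before the start site. Sqstm1, Actg1, Itgav, Mdm2 and Sgk1 were also called higher in LP and in ML, but had no match in the 250 bases before the start site. Nfkbie, called lower in LP, had a match that begins 156 bases before it.

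Over windows of 300 bases (250 before and 50 after the start, both strands), TGANTCA was present in 28 of 307 promoters of the genes called higher in LP (9.12%) and in 1 of 76 promoters of those called lower (1.32%). It was present in 5.03% of the 11159 promoters of tested genes and in 7.81% of all 32851 promoters in the table. The ARE core TGACNNNGC was present in 17.3% of promoters of the higher genes, 6.58% of the lower and 14.1% of the tested genes. For the cyclic AMP response element TGACGTCA the shares were 4.56%, 5.26% and 3.16%. TGANTCA and TGACNNNGC can overlap, and matches that do so were present in 1.30% of the higher and 0.421% of the tested promoters. Without KO replicate 3, TGANTCA was present in 19 of 160 promoters of genes called higher (11.9%), in 1 of 35 of those called lower (2.86%) and in 5.18% of those of tested genes, and TGACNNNGC in 18.8%, 11.4% and 14.1%. The shares of the full fit cover the 242 of 354 symbols called higher and 60 of 82 called lower that had an entry, and a match to letters is not a site of binding.

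Few immediate early genes were called together with Fosl1. Of 29 members of a list of AP-1 and immediate early genes, all tested in LP, 5 were called higher and none lower, beside 2.88% of all genes, but 16 of the 29 lay below 0 and the median was -0.08. The 5 were Fosl1, Arc (1.68 log2 units), Srf (1.25), Myc (0.90) and Klf10 (0.75). SRF is an actin-sensitive transcription factor that acts at many immediate early promoters, and its gene had means of 30.9 and 75.4 CPM without overlap between the sets. Fos, the classic early subunit of AP-1, stood at 912, 589.5, 880.1 and 452 CPM in WT 1, WT 2, KO 1 and KO 2. In WT 3, WT 4, KO 3 and KO 4 it stood at 289, 688, 491 and 567 CPM. The sets overlapped, and the log2 difference was -0.48 (SE 0.28). Egr1 gave -0.55 (SE 0.35), Jun -0.15, Junb -0.27, Atf3 -0.23, Dusp1 -0.42, Ier2 -0.78 and Nr4a1 -0.86, none of them called.

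A few antioxidant genes were called beside Srxn1. Of 29 NRF2 list members, Srxn1, Hmox1 and Sqstm1 were called higher (beside 2.88% of all genes) and G6pdx lower (beside 0.665%), 13 lay above 0 and the median was -0.22. Hmox1, haem oxygenase, stood at 14.6 and 29.8 CPM in WT and 51.2 and 20.7 CPM in KO replicates 1 and 2, against 123 and 93.9 CPM in WT and 209.7 and 91.4 CPM in KO replicates 3 and 4. Sqstm1, the autophagy receptor p62, stood at 188, 187, 275 and 170.2 CPM in WT 1, WT 2, KO 1 and KO 2. In WT 3, WT 4, KO 3 and KO 4 it reached 368, 496, 808 and 524 CPM. Neither gene overlapped between the sets, and the log2 differences were 2.18 (SE 0.35) and 1.39 (SE 0.21). Other standard NRF2 targets were not called: Nqo1 gave -0.53, Gclc 0.21, Gclm 0.43, Txnrd1 0.19 and Gstp1 -1.37. G6pdx, the entry enzyme of the pentose phosphate pathway, gave -1.08.

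Chaperone and secretory stress genes showed few calls, at a share of all genes of 2.88% higher and 0.665% lower. Bag3, a co-chaperone of HSP70, was the 1 called of 22 heat shock genes, with means of 58.7 and 102 CPM, and the list's median was -0.22. Hspa1b, a stress-inducible HSP70, stood at 18.7, 41.1, 18.1 and 32.5 CPM in WT 1, WT 2, KO 1 and KO 2 and at 30.1, 69.9, 58.2 and 37.0 CPM in WT 3, WT 4, KO 3 and KO 4, with overlap. Of 25 genes of the unfolded protein and integrated stress responses, 1 was called, in the lower direction: Pdia6, a disulfide isomerase of the endoplasmic reticulum. Pdia6 stood at 56.2, 82.6, 88.2 and 93.0 CPM in WT 1, WT 2, KO 1 and KO 2 and at 39.7, 50.8, 30.3 and 43.1 CPM in WT 3, WT 4, KO 3 and KO 4, a difference of -0.96 (SE 0.23). Hspa5 (-0.25) and Ddit3 (-0.26) were not called.

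Ligands of the EGF receptor were among the highest lists. Of 7 tested, 4 lay above 0 and the median was 1.11, with 1 called higher (beside 2.88% of all genes). Hbegf, the heparin-binding ligand shed by metalloproteases, stood at 40.1 and 41.6 CPM in WT and 76.9 and 51.5 CPM in KO replicates 1 and 2. It reached 106 and 128 CPM in WT and 185 and 189 CPM in KO replicates 3 and 4, without overlap, a difference of 1.53 (SE 0.19). Epgn, epigen, gave 2.89 (SE 0.86) without a call. Its levels in replicates 1 and 2 were 0.125, 0.688, 0.186 and 4.37 CPM in WT 1, WT 2, KO 1 and KO 2, against 3.61, 9.36, 13.5 and 5.82 CPM in replicates 3 and 4. Tgfa gave 1.11, Areg -0.52 and Btc -1.21, none called. Among 17 genes that respond to ERK, the kinase downstream of that receptor, Plaur and Epha2 were called higher and the median was -0.04. Plaur, the urokinase receptor, stood at 5.62, 1.89, 6.70 and 5.05 CPM in WT 1, WT 2, KO 1 and KO 2 and at 10.4, 20.6, 50.5 and 21.2 CPM in WT 3, WT 4, KO 3 and KO 4. Its sets did not overlap (2.32, SE 0.44), while the feedback genes Dusp6 (-0.49) and Spry4 (0.50) were not called. Epha2, an ephrin receptor, gave 1.27 (SE 0.24), with KO replicate 1 at 112 CPM just above WT replicate 3 at 111 CPM.

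A few genes of the wound edge and of the cytoskeleton were higher in replicates 3 and 4. Of 22 wound-edge genes 4 were called higher, among them Anxa2, F3 and Itgav, and none lower, beside 2.88% and 0.665% of all genes. In that list 13 members lay above 0 and 9 below, with a median of 0.11. Anxa2, annexin A2, a membrane-binding protein that assembles plasminogen activation at the cell surface, stood at 82.2 and 73.3 CPM in WT and 108 and 99.7 CPM in KO replicates 1 and 2. It stood at 168 and 169 CPM in WT and 266 and 214 CPM in KO replicates 3 and 4. F3, tissue factor, the cell-surface starter of coagulation, stood at 28.5, 32.7, 47.6 and 44.7 CPM in WT 1, WT 2, KO 1 and KO 2 and at 57.3, 76.3, 95.7 and 78.4 CPM in WT 3, WT 4, KO 3 and KO 4. Both genes were separated between the sets, by 1.16 (SE 0.16) and 1.02 (SE 0.20) log2 units. Of 23 YAP and SRF targets, Vcl (vinculin, 0.94) and Actg1 (cytoplasmic gamma actin, 0.85) were called higher, 14 lay above 0 and 9 below, and the median was 0.11. Emp1, an epithelial membrane protein, gave 1.35 (SE 0.21), but its sets overlapped, and KO stood above WT within each set. WT stood at 77.7, 61.4, 137 and 134 CPM in replicates 1 to 4, and KO at 158, 110.0, 496 and 397 CPM.

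The largest upward differences with separated sets and a mean of at least 5 CPM in replicates 3 and 4 were in genes of low level in replicates 1 and 2. Only the higher set had to reach that mean, so the rule itself favours genes of low level in the other set. Aloxe3, an epidermal lipoxygenase, stood at 0.249, 1.38, 1.49 and 1.51 CPM in WT 1, WT 2, KO 1 and KO 2 and at 10.1, 26.3, 106 and 18.8 CPM in WT 3, WT 4, KO 3 and KO 4 (5.01, SE 0.65). Stra6l, a relative of the retinol transporter STRA6, stood at 9.23, 3.27, 3.54 and 3.36 CPM in WT 1, WT 2, KO 1 and KO 2. It reached 81.4, 83.8, 49.8 and 31.8 CPM in WT 3, WT 4, KO 3 and KO 4, a difference of 3.63 (SE 0.33). KO replicate 3 was the highest library for Aloxe3 but not for Stra6l. Flnc, filamin C, an actin crosslinker, stood at 0.624, 4.13, 0.558 and 9.08 CPM in WT 1, WT 2, KO 1 and KO 2 and at 26.7, 28.2, 33.2 and 17.5 CPM in WT 3, WT 4, KO 3 and KO 4 (2.95, SE 0.71). The others of the 10 largest such differences were Pygm, muscle glycogen phosphorylase, with means of 0.340 and 5.18 CPM, Fhad1 with 2.12 and 20.3, Arhgap20 with 1.10 and 7.61, Apol8 with 1.02 and 7.60, Hal, which degrades histidine, with 1.35 and 9.36, Enkur with 0.780 and 5.37, and Syt12, a synaptotagmin, with 4.18 and 25.7. The lower mean of Pygm lay below the 0.414 to 0.577 CPM that 3 counts make in replicates 1 and 2.

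Either 1 or 2 members of each of the respiratory, cell cycle and ribosomal protein lists were called lower in replicates 3 and 4, beside 0.665% of all genes. Most members of each list lay below 0, as did 53.3% of all genes. Of 23 nuclear genes of the respiratory chain 22 lay below 0 (median -0.41), and 1 was called, Cyc1, cytochrome c1. Cyc1 stood at 44.4, 39.7, 28.7 and 47.8 CPM in WT 1, WT 2, KO 1 and KO 2 and at 23.4, 19.5, 12.0 and 18.8 CPM in WT 3, WT 4, KO 3 and KO 4 (-1.14, SE 0.27). Of 21 cell cycle genes 18 lay below 0, with a median of -1.37, and 2 were called, Mcm2 and Ccnb1. The 24 matched genes of this list summed to 312, 742, 324 and 985 CPM in WT 1, WT 2, KO 1 and KO 2. In WT 3, WT 4, KO 3 and KO 4 the sums were 607, 337.5, 204.5 and 312 CPM, so the sets overlapped, and replicate 2 was highest in each genotype. Mcm2, a subunit of the replicative helicase, stood at 18.2, 13.9, 12.5 and 25.2 CPM in WT 1, WT 2, KO 1 and KO 2 and at 4.57, 7.14, 0.241 and 3.59 CPM in WT 3, WT 4, KO 3 and KO 4. Ccnb1, the mitotic cyclin B1, had a mean of 7.43 CPM in replicates 1 and 2 and was at 0.963, 0.635, 0 and 0 CPM in WT 3, WT 4, KO 3 and KO 4, where 3 counts limit any reading. Among 26 cytosolic ribosomal protein genes 22 lay below 0 (median -0.15), and 1 was called, Rpl18. Rpl37a, another large-subunit protein outside that list, was called with overlap, at 438, 323, 391 and 231 CPM in WT 1, WT 2, KO 1 and KO 2 against 193, 291, 108 and 161 CPM in WT 3, WT 4, KO 3 and KO 4. The others of the 10 largest downward differences with separated sets and a mean of at least 5 CPM in replicates 1 and 2 were Bmf, which promotes apoptosis, with means of 14.5 and 2.38 CPM, Zbtb5 with 7.41 and 1.25, Prr15l with 7.89 and 1.19, Trim65 with 19.3 and 4.02, Igfals, which carries IGF in serum, with 14.7 and 3.38, Duox1, a hydrogen peroxide-forming oxidase, with 10.00 and 2.503, Pcx, pyruvate carboxylase, with 23.5 and 6.45, and Cited1.

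Cited1, a coactivator of hormone-responsive mature luminal cells, stood at 14.6, 18.9, 42.6 and 52.0 CPM in WT 1, WT 2, KO 1 and KO 2. It stood at 3.61, 10.5, 5.29 and 13.4 CPM in WT 3, WT 4, KO 3 and KO 4 (-1.78, SE 0.41), without overlap. Of 16 LP identity genes 2 were called lower, Wfdc18 and the ETS factor Ehf (-0.70), and the median was -0.49. Wfdc18, a secreted protease inhibitor-like protein, stood at 656, 744, 416 and 885 CPM in WT 1, WT 2, KO 1 and KO 2 and at 472, 399.9, 187 and 231 CPM in WT 3, WT 4, KO 3 and KO 4, with overlap. Krt8, a keratin of all luminal cells, stood at 440.3, 596, 750.2 and 746 CPM in WT 1, WT 2, KO 1 and KO 2 and at 812, 1029, 1326 and 1124 CPM in WT 3, WT 4, KO 3 and KO 4 (0.77, SE 0.18). Cldn3, a tight junction protein of the same pan-luminal list, went the other way (-0.996). None of the 11 tested milk genes was called (median -0.86), and their summed level ran from 22650 to 116400 CPM in replicates 1 and 2 and from 13990 to 26040 CPM in replicates 3 and 4. In bulk RNA, fewer cells of a type and less RNA per cell cannot be told apart.

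The interferon list had no called member, but nearly all of its members were below 0. The 23 interferon response genes had 2 members above 0 and a median of -0.90 with none called, and their summed level of 354 to 446 CPM in replicates 1 and 2 did not overlap 247 to 338 CPM in replicates 3 and 4. The called members of the lists that follow stand beside 2.88% of all genes called higher and 0.665% lower. Among 25 genes of the NF-kB list Nfkb1 (1.03), Cxcl16 (1.25) and Csf3 (1.81) were called higher and Nfkbie (-1.75) and Saa1 (-2.94) lower. Per2 (1.00), Cry1 (1.08) and Nr1d1 (1.203) of 15 circadian clock genes were called higher. Ndrg1 (1.16) and Pfkp (1.13) of 21 hypoxia and glycolysis genes, Mdm2 (1.07) of 16 p53 targets, and Sgk1 (0.74) and Zbtb16 (1.61) of 12 sex hormone response genes were also called higher. Members above and below 0 were 13 and 12 in the NF-kB list (median 0.04) and 8 and 7 in the clock list (0.31). They were 9 and 12 in the hypoxia list (-0.07), 9 and 7 among p53 targets (0.11) and 5 and 7 in the sex hormone list (-0.05). No member was called among 23 ribosome biogenesis, 13 mitochondrially encoded and 19 cholesterol synthesis genes. Of 24 chromatin and splicing genes 18 lay above 0 (median 0.35), and Luc7l3 (0.92) and Son (0.80) were called higher.

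Leaving out KO replicate 3, the library that stood apart, kept the direction of all 66 called genes that the naming rule chose or a list holds, and 56 of the 66 differences became smaller. Aloxe3 moved most, from 5.01 to 4.14, Mcm2 moved from -2.27 to -1.79 and Cxcl16 from 1.25 to 0.89. Of the 66 genes 28 were still called with 7 libraries, where 1.41% of all genes were called higher and 0.272% lower. The immediate early list then had 2 called members, Fosl1 and Srf (median -0.05), while Srxn1, Hmox1, Sqstm1 and G6pdx of the NRF2 list remained called (median 0). Hbegf, Plaur and Epha2 remained called, as did Anxa2, F3 and Vcl, and the wound-edge list had 2 called members and a median of 0.41. No member was called among the heat shock, unfolded protein, NF-kB, respiratory chain, ribosomal protein, cell cycle and circadian clock lists. Of the lists with most members below 0, the median of the respiratory chain stood at -0.45, ribosomal proteins at -0.31, the cell cycle at -0.82 and the interferon list at -0.73, with 21 of its 23 members below 0. Cited1, Wfdc18, Ehf, Krt8 and Cldn3 were no longer called, and their differences were -1.46, -0.9965, -0.57, 0.73 and -0.84. Slc34a2 of the LP identity list was called lower only in this fit (-1.30, against -1.08 with all LP libraries). In that list 14 of 16 members lay below 0, with a median of -0.48. Srsf2 of the chromatin and splicing list was called higher only in this fit (0.80, against 0.67).

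**Figure D2:**
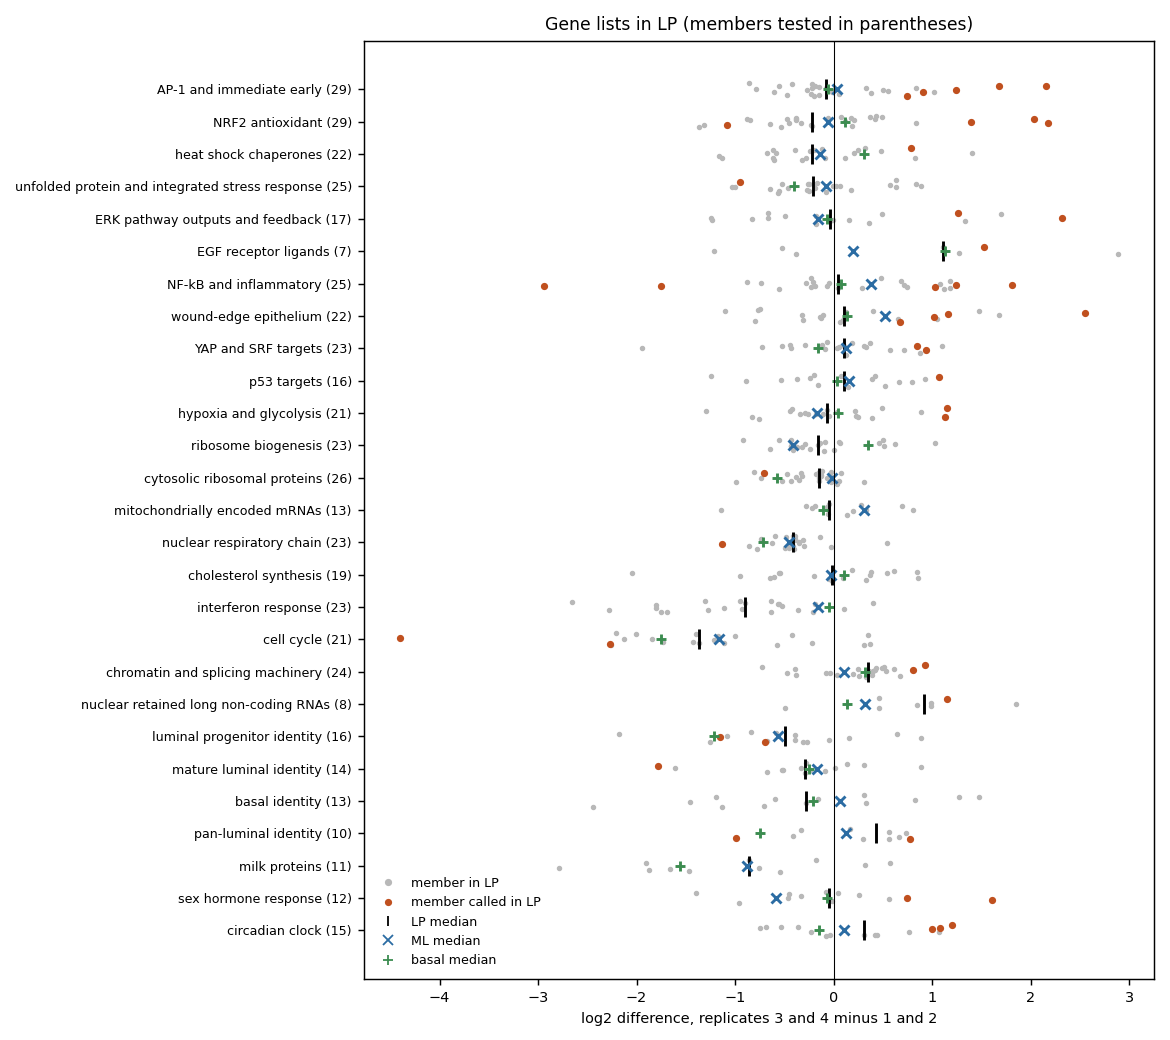
Log2 difference in LP (replicates 3 and 4 minus 1 and 2) for each tested member of 27 gene lists, with called members in orange and the medians in LP, ML and basal cells as bars, crosses and plus signs. In the AP-1 and NRF2 lists a few called members lie above 0.7 while the LP medians are -0.08 and -0.22, and the cell cycle list has its LP median at -1.37.

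Markers of other cell types differed widely in LP, from low levels for immune genes to higher levels for fibroblast genes. Immune markers (13 genes) summed to 8.64 to 14.9 CPM in replicates 1 and 2 and to 16.6 to 28.2 CPM in replicates 3 and 4, without overlap, and 3 of the 13 were at 0 in all 8 libraries, while Ptprc, the leukocyte antigen CD45, reached at most 0.359 CPM. Fibroblast markers (12 genes) summed to 159.7 to 1050 and 201 to 650.1 CPM, and 9 of the 10 tested lay above 0 (median 0.42). Fbn1, fibrillin 1, ran from 14.8 to 364 CPM over the LP libraries and Dcn, decorin, from 29.9 to 223 CPM. Col1a2, Col3a1 and Pdgfra had higher medians in LP (34.1, 37.0 and 26.2 CPM) than in ML (2.505, 3.78 and 1.34 CPM) and basal cells (18.9, 19.8 and 4.21 CPM). Medians of Col1a1, Lum, Dpt, Mfap5, Pi16 and Clec3b were likewise highest in LP. The most abundant members of the list were not. For Dcn the LP median of 81.5 CPM lay below those of ML (339 CPM) and basal libraries (104 CPM). Fbn1, at 109.5 CPM in LP, lay below its basal median of 364 CPM but above 6.77 CPM in ML. Summed fibroblast levels overlapped between the sets, with KO replicate 1 highest. Endothelial markers summed to 27.0 to 57.0 and 6.35 to 51.2 CPM, pericyte markers to 93.2 to 125 and 67.8 to 120.4 CPM, and basal identity genes to 191 to 247 and 125 to 219 CPM. Adipocyte markers summed to 3.39 to 14.0 and 1.88 to 18.9 CPM, Schwann cell markers to 91.8 to 143 and 99.4 to 144 CPM, and erythroid markers to at most 1.19 CPM. No marker of these 7 non-epithelial lists was called in LP, and the part of such cells in the differences was not tested.

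Gene type and base composition moved with the division. Of the tested genes, 11077 were protein coding, with a median LP difference of -0.09 and 297 called higher (2.68%). The 57 sense intronic transcripts, which lie within introns of other genes, had a median of 1.16 with 53 above 0 (93.0%) and 9 called higher (15.8%). Unspliced models still to be experimentally checked (327 genes of the TEC class) had a median of 0.85 with 20 called higher (6.12%), and 184 lincRNAs had 0.50 with 14 called higher (7.61%). Of the 8 tested nuclear retained long non-coding RNAs 7 lay above 0. Kcnq1ot1, an imprinted antisense transcript within Kcnq1, stood at 194, 123, 181 and 186 CPM in WT 1, WT 2, KO 1 and KO 2 and at 363, 442, 353 and 365 CPM in WT 3, WT 4, KO 3 and KO 4 (1.16, SE 0.19). The sources used here do not state whether the counting used strand, so reads of antisense or intronic transcripts cannot be told apart from unspliced reads of their host genes. In 5 groups of 2454 genes each by transcript GC content, the group of lowest GC (30.8% to 43.3%) had a median of 0.14. In it 118 genes were called higher and 5 lower. The group of highest GC (54.8% to 75.0%) had a median of -0.25, with 42 called higher and 30 lower. These counts and those by gene type above stand beside 2.88% of all genes called higher and 0.665% lower. Without KO replicate 3 the medians were 1.12 for sense intronic transcripts (2 of 63 called higher), 0.85 for TEC models (8 of 359), 0.39 for lincRNAs (7 of 202) and -0.08 for protein coding genes (155 of 11467), and 0.17 and -0.26 in the groups of lowest and highest GC. In that fit 1.41% of all genes were called higher. The part of gene type and GC content in the differences was not tested.

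**Figure D3:**
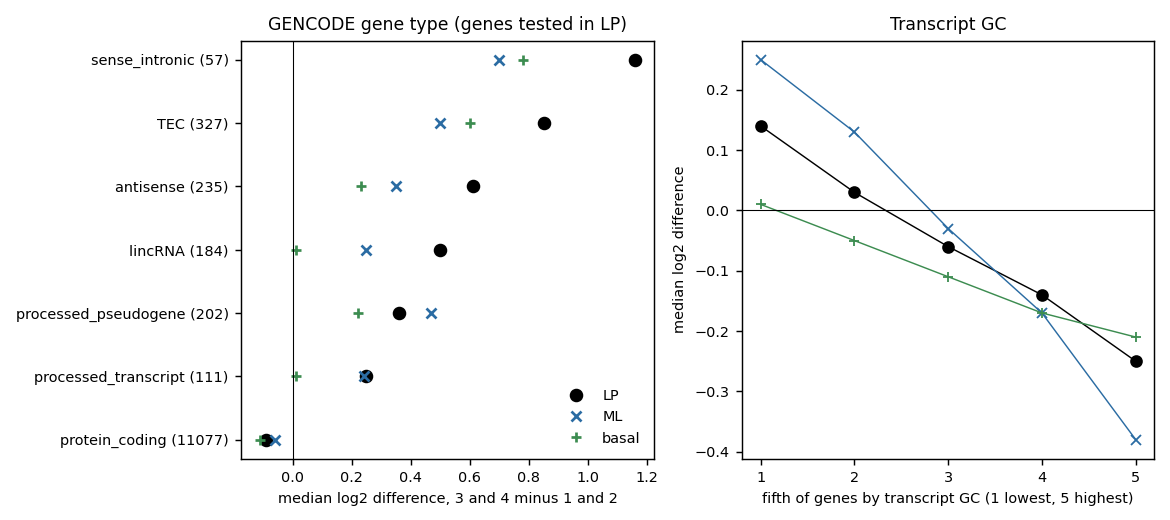
Median log2 difference (replicates 3 and 4 minus 1 and 2) by gene type, left, and in 5 equal groups of genes by transcript GC content, right, in LP, ML and basal cells. Sense intronic transcripts have medians of 1.16, 0.70 and 0.78 in LP, ML and basal cells, and in the right panel the medians fall from 0.14, 0.25 and 0.01 in the group of lowest GC to -0.25, -0.38 and -0.21 in the highest.

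Mature luminal libraries, which the division of LP did not use, were then compared by the same replicate numbers. That division of ML had also been seen in earlier results of these data, so it is not independent support. Of 12249 genes tested in ML, 614 were called (5.01%), 281 higher (2.29%) and 333 lower (2.72%), and 1815 (14.8%) had all libraries of one set above the other. Of the 355 genes called higher in LP, 343 were tested in ML, where 321 lay above 0 (93.6%, against 48.1% of all genes), 82 were called higher (23.9%) and none was called lower. Of the 82 genes called lower in LP, 78 were tested, 73 lay below 0 (93.6%, against 51.9%), and 18 were called lower (23.1%). The ML medians were 0.64 and -0.75. The 100 genes called in both made up 22.9% of the LP calls and 16.3% of the ML calls. These ML counts rest on the fit of 8 single libraries, although same-numbered WT and KO libraries may be paired. With WT and KO ML summed by replicate number 55 genes were called in ML, of which 15 were also called in LP (11 higher and 4 lower in both). Without WT ML replicate 3 the counts were 79 and 17 (13 higher and 4 lower). The same-direction shares of the LP genes were 93.1% and 94.9% with the sums and 92.8% and 94.9% without that library. With the genes called without KO LP replicate 3, the same-direction shares were 93.3% and 97.1%. The replicate tags of the KO ML samples differ from their titles. With KO ML numbered by the tag, no gene was called in ML by edgeR, against 2116 at an unadjusted p under 0.05, while 90.8% and 80.8% of the LP genes kept their direction, with medians of 0.55 and -0.43. WT ML alone, which has no such doubt, gave 88.6% and 84.8%, with no gene called.

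Srxn1 was higher in ML replicates 3 and 4 as well, at 28.1, 14.8, 14.9 and 20.1 CPM in WT 1, WT 2, KO 1 and KO 2 and 58.1, 69.8, 70.7 and 50.8 CPM in WT 3, WT 4, KO 3 and KO 4. Its ML difference was 1.68 (SE 0.24, edgeR adjusted p = 0.00416), and the call held without any 1 of the 8 ML libraries (adjusted p at most 0.0246). These p-values and those below for ML treat the 8 libraries as separate, although same-numbered WT and KO libraries may be paired. Fosl1 in ML stood at 9.05, 11.9, 7.55 and 21.1 CPM in WT 1, WT 2, KO 1 and KO 2 and at 76.9, 43.9, 53.2 and 23.7 CPM in WT 3, WT 4, KO 3 and KO 4. Its sets were separated by 1.97 log2 units (SE 0.41, edgeR adjusted p = 0.0280), but the call was lost without any 1 of WT ML 1, 2, 3 or 4 or KO ML 1 or 3 (adjusted p up to 0.102). Anxa2 (1.17, edgeR adjusted p = 0.00239), Emp1 (1.59, adjusted p = 0.00370), Epgn (2.40, adjusted p = 0.00370), Actg1 (1.08, adjusted p = 0.00469) and Rybp, a Polycomb subunit (1.10, adjusted p = 0.00464), were called higher in ML and kept the call without each library. In the other direction, Cited1 (-1.44, edgeR adjusted p = 0.00416), Rpl37a (-1.63, adjusted p = 0.000956) and Rrp1, a ribosome assembly factor (-1.13, adjusted p = 0.00418), were called lower in ML and kept the call without each library. Epgn in ML stood at 11.3, 6.04, 11.2 and 4.99 CPM in WT 1, WT 2, KO 1 and KO 2 and at 41.3, 31.6, 67.6 and 39.8 CPM in WT 3, WT 4, KO 3 and KO 4, without the overlap seen in LP.

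The calls of other ML genes depended on single libraries. F3 (2.25, edgeR adjusted p = 0.0436) lost its call without WT ML 1, 3 or 4 or KO ML 1 or 3 (up to 0.125). Sqstm1 (0.70, edgeR adjusted p = 0.0233) lost it without WT ML 3 or 4 or KO ML 2 or 3 (up to 0.0897). Stra6l was at 0 in 3 of the ML libraries of replicates 1 and 2 and at 0.139 CPM in the fourth, against 3.81, 2.60, 0.770 and 2.65 CPM in WT 3, WT 4, KO 3 and KO 4 (edgeR adjusted p = 0.0229, lost without WT ML 1, 3 or 4 or KO ML 1, 3 or 4, up to 0.101). Hmox1 and Flnc were not called in ML: their differences were 0.20 (adjusted p = 0.739) and -0.10 (adjusted p = 0.922). Hbegf gave 0.84 (adjusted p = 0.133), and Plaur 1.10 (adjusted p = 0.0816). In ML the wound-edge list had 5 of 24 members called higher and none lower (median 0.52), beside 2.29% and 2.72% of all genes. Of 13 mitochondrially encoded genes 4 were called higher and none lower. Other lists had more calls in the lower direction. Of 28 NRF2 genes 2 were called higher and 5 lower (median -0.06), and of 26 ribosomal protein genes 1 and 6. Among 22 heat shock genes and 21 hypoxia and glycolysis genes 3 each were called lower and none higher.

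In basal cells edgeR called none of 12241 genes (0%), with 878 at an unadjusted p under 0.05 and 183 called by DESeq2, and 700 (5.72%) had separated sets. Of the genes called higher in LP 299 of 345 lay above 0 in basal cells (86.7%, against 45.4% of all genes), and of those called lower 60 of 73 lay below 0 (82.2%, against 54.6%). Basal medians of these genes were 0.64 and -0.60. Without WT basal replicate 2 and KO basal replicate 3, which earlier results of these data had set apart, the shares were 84.7% and 70.7%. With the genes called without KO LP replicate 3 they were 90% and 71.9% over all basal libraries. Srxn1 in basal cells stood at 14.9, 40.04, 26.7 and 34.5 CPM in WT 1, WT 2, KO 1 and KO 2 and at 107, 118, 100.1 and 132 CPM in WT 3, WT 4, KO 3 and KO 4 (1.98, edgeR adjusted p = 0.142). Fosl1 stood at 64.4, 30.7, 102 and 47.9 CPM in WT 1, WT 2, KO 1 and KO 2 and at 159.9, 275, 136 and 152 CPM in WT 3, WT 4, KO 3 and KO 4 (1.56, adjusted p = 0.354). Hmox1 (2.24, adjusted p = 0.200), Hbegf (1.57, adjusted p = 0.162), Flnc (2.16, adjusted p = 0.162) and Kcnq1ot1 (1.56, adjusted p = 0.108) also had separated basal sets without a call, while Anxa2 gave 0.10. Cited1 had separated basal sets too, lower as in LP (-3.60, edgeR adjusted p = 0.528). Actg1, called higher in LP and in ML, had separated basal sets in the other direction. Its basal means were 799 and 534 CPM (-0.58, edgeR adjusted p = 0.614).

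**Figure D4:**
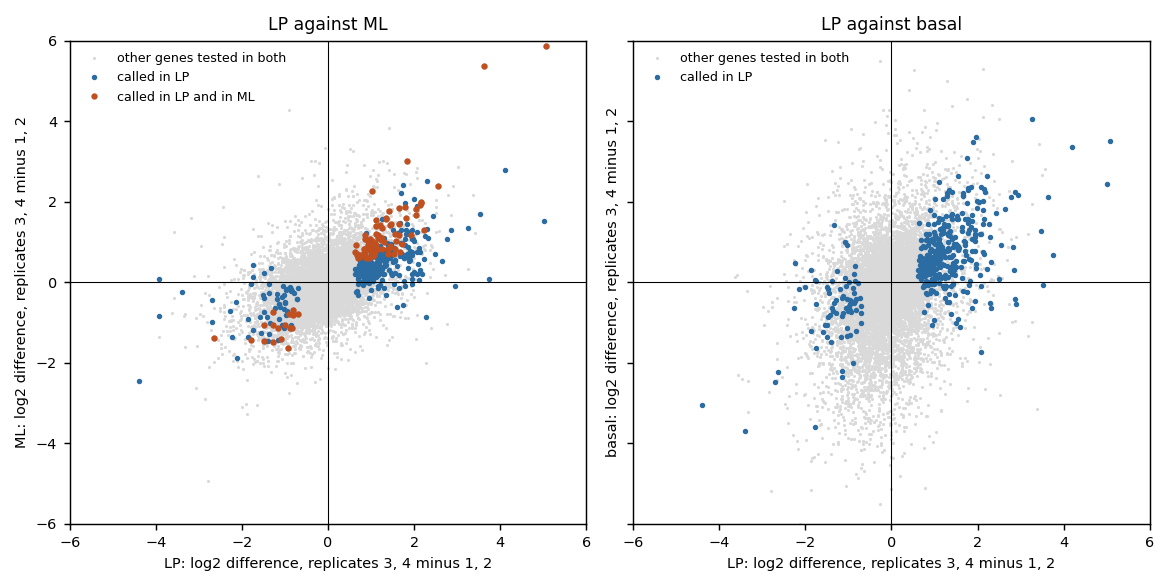
Log2 difference between replicates 3 and 4 and replicates 1 and 2 in LP (horizontal) against ML (left) or basal cells (right) for each gene tested in both, with genes called in LP in blue and those also called in ML in orange; 3 points lie outside the axes. Most blue points lie in the quadrants of equal sign, 93.6% of the genes called higher in LP being above 0 in ML and 86.7% in basal cells.

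Across genes, the LP difference had a Pearson correlation of 0.496 and a Spearman correlation of 0.498 with that in ML (11448 genes), and of 0.341 and 0.337 with that in basal cells (11110 genes). Genes are not independent replicates, and the populations may share gland pools, depth and base composition effects. The difference between the divisions of LP and of another population contains the LP values by which the division was chosen, so its counts are a description too. By edgeR's threshold no gene was called for LP minus ML (0% of 14642), with 372 at an unadjusted p under 0.05 and 5 called by DESeq2. The LP minus ML difference was 0.31 (SE 0.39) for Srxn1, 0.14 (SE 0.55) for Fosl1 and 3.00 (SE 0.89) for Flnc. For LP minus basal cells 1 gene of 14642 was called (0.00683%), with 1256 at an unadjusted p under 0.05 and 97 called by DESeq2. This was Cyp39a1, an oxysterol hydroxylase, whose level ran from 11.2 to 26.7 CPM over all LP libraries, with an LP difference of 0.28 (SE 0.31). Its basal level was 14.5, 34.0, 7.84 and 11.4 CPM in WT 1, WT 2, KO 1 and KO 2 and 1.75, 1.78, 0.322 and 1.16 CPM in WT 3, WT 4, KO 3 and KO 4. The LP minus basal difference was 3.91, and the number called was between 0 and 4 when any 1 library was left out and 0 with genotype and replicate number as a block.

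**Figure D5:**
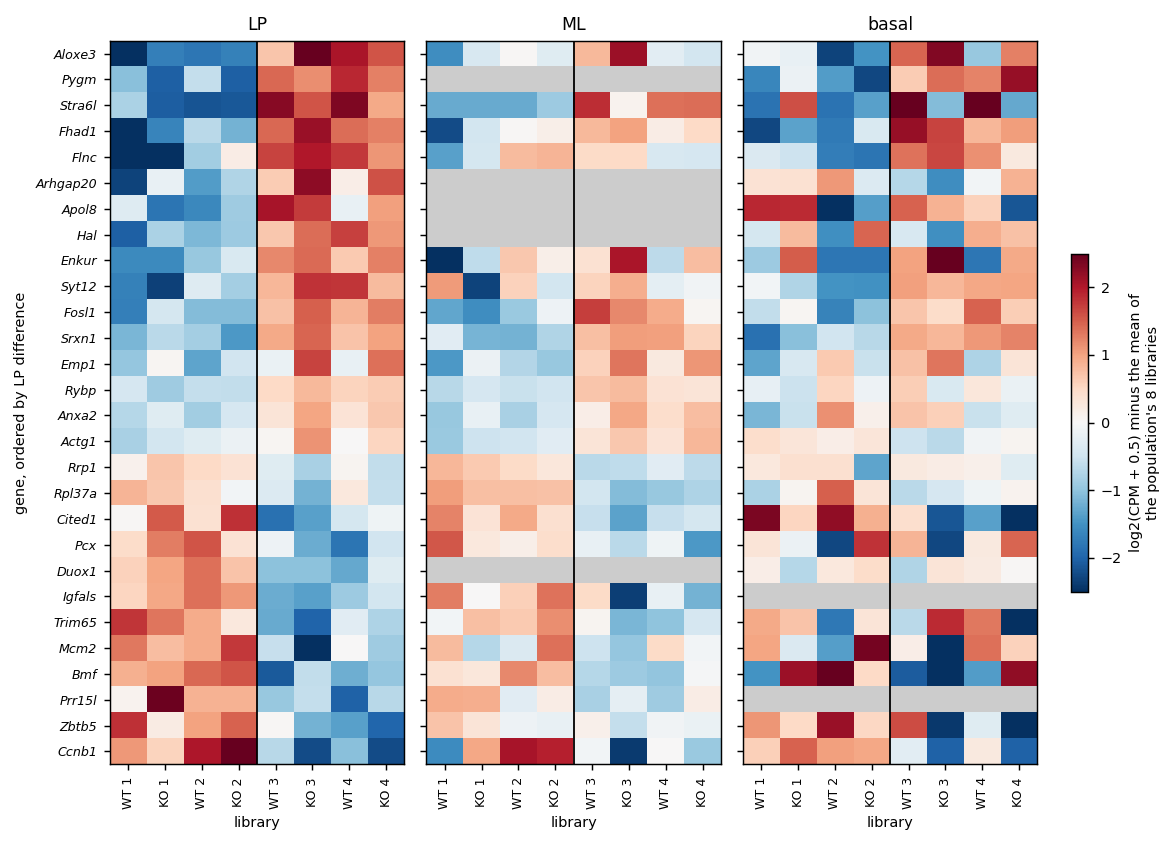
Levels of 28 genes (log2 of CPM + 0.5, minus the mean of the population's 8 libraries) in every LP, ML and basal library, ordered by the LP difference, with grey for genes not tested. In LP every gene shown except Emp1 and Rpl37a separates replicates 1 and 2 from 3 and 4. Srxn1, Fosl1 and Cited1 are among those that do so in the same direction in all 3 populations.

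The LP genes lay in the same direction in both genotypes. Of the 437 LP genes, 431 had a value in each genotype alone, and all 431 had the same direction in WT alone and in KO alone, with median sizes of 1.18 and 1.24; the fit of all 8 libraries chose these genes, so this describes them. With 4 libraries each, 109 genes were called in WT alone and none (0) in KO alone. Fosl1 gave 2.203 in WT and 2.13 in KO, and Srxn1 1.85 and 2.25. The interaction of replicate set and genotype, fitted on the same 8 libraries and so given as a description, passed edgeR's threshold in no gene (0% of 13062), with 473 at an unadjusted p under 0.05 and 1 called by DESeq2. Nor was any gene called between KO and WT in LP with the replicate set as a term (0% of 12322), with 758 at an unadjusted p under 0.05 and 47 called by DESeq2. Without that term the count was also 0, with 439 at an unadjusted p under 0.05. Emp1 gave 1.34 for KO minus WT in that fit (SE 0.21, edgeR adjusted p = 0.113).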

How the data were processed

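The authors deposited expected counts per gene, not normalized, for 24 libraries. Cutadapt, STAR, RSEM and the mm10 build are named in the submitters' processing notes, and the sources used here give no versions, settings or strand handling. Expected counts were rounded before edgeR 4.0.16 (R 4.3.3) with TMM scaling, its default expression filter, robust quasi-likelihood F-tests, genotype as a term and Benjamini-Hochberg adjustment at 0.05. LP, ML and basal libraries were fitted separately, and differences between populations in 1 fit of all 24 libraries. limma 3.58.1 and DESeq2 1.42.0 gave alternatives. Scripts were tested on simulated data.

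Depth was 3098433 to 7246445 counts per library. The amplified molecules carry no identifiers, so a limit of 3 counts covers counting error only. P-values measure the spread between the labelled replicates, which are pools of mice. The table held 24007 genes, 25 of them without a symbol. An expected count divides reads between near-identical copies, so ribosomal protein genes and their pseudogenes are uncertain.

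The members, the 34 lists (614 of 620 symbols matched) and the rules were chosen with earlier results of these data known. Genes named were the 10 largest separated differences in each direction at a mean of at least 5 CPM in the higher set, Fosl1, Srxn1, by list the 2 (first 12 lists) or 1 (other lists) with the smallest LP p, and the 8 with the smallest ML p called in both. Predicted and Riken gene names were left out of the 10 largest and of the 8. Other list members, with Fos, Egr1, Hspa1b, Cyp39a1 and the genes at the threshold's edge, were chosen after their values were seen. Some list members are not reported here. Replicate numbers came from the titles. Same-numbered WT and KO LP libraries deviated together, with correlations of 0.196, 0.367, 0.236 and 0.108 for numbers 1 to 4. The highest correlations with another number were 0.122, 0.117, 0.145 and 0.162, so number 4 did not correlate best with its own. The numbers may therefore pair the libraries, but the main fits had no term for a pair. Alternatives with sums, or with the replicate number as a block, allowed for it.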

Additional observations from a re-analysis of the deposited data

Results flagged for a closer look

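Among 80 sets of 4 libraries screened for a library far from the others, 8 exceeded Dixon's critical value for 4 values, and chance gives about 1 in 20. KO LP replicate 1 was the highest of replicates 1 and 2 for Sqstm1 (275 CPM), Epha2 (112 CPM) and the summed fibroblast markers (1050 CPM). KO LP replicate 2 was the highest of that set for Epgn (4.37 CPM). WT LP replicate 1 was the highest for Stra6l (9.23 CPM) and the lowest for Aloxe3 (0.249 CPM). In replicates 3 and 4, KO LP replicate 3 was the highest for Aloxe3 (106 CPM) and WT LP replicate 4 for Kcnq1ot1 (442 CPM).

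For Cyp39a1 the division of the replicates differed between LP and basal cells by 3.91 log2 units, past edgeR's threshold in a fit of the difference itself, which contains the LP values that chose the division, with basal replicates 3 and 4 at 0.322 to 1.78 CPM and all LP libraries at 11.2 to 26.7 CPM.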

How the results depend on the processing

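In no single gene named did an alternative reverse the direction of a call, in any of the 3 populations. Counts moved more. In LP the 437 calls became 1086 with DESeq2, 1036 with no expression filter, 236 with WT and KO summed by replicate number, 109 in WT alone and 0 in KO alone. The 614 ML calls became 1209 with DESeq2, 1291 with no filter, 55 with sums, 0 with KO ML numbered by the tag, 0 in WT alone and 1 in KO alone. Basal cells gave 183 with DESeq2, 82 with no filter and 2 with RLE scaling in place of 0. The interaction with genotype gave 1 with DESeq2 and 7 with no filter, and KO against WT gave 47 and 138. LP minus ML gave 5 and 18, and LP minus basal 97 and 87. Leaving out each library in turn gave 174 to 408 genes for LP, 79 to 627 for ML, 0 to 3 for basal cells, 0 to 2 for the interaction, 0 to 2 for KO against WT, and 0 to 4 for LP minus basal. The LP count fell by over 1.5 times without WT replicate 1 (208), 2 (174), 3 (183) or 4 (257) or KO replicate 1 (272) or 3 (217). In ML it did so without WT replicate 1 (252), 3 (79) or 4 (102) or KO replicate 1 (140), 2 (408), 3 (137) or 4 (402). With the replicate number as a block, limma gave 402 genes in LP, 444 in ML and none (0) in basal cells, KO against WT gave 0, and LP minus basal gave 0 in place of 1; no other count changed its side under the block. Splitting by genotype leaves fewer libraries, and the cause of the other moves was not tested. At these depths 3 counts are up to 0.792 CPM in LP, so differences of genes below that were not detectable.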
